A study of Mus musculus with 6 samples.

Results

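The cytoplasmic actin cytoskeleton was followed through 10 genes in ovarian RNA of proestrous mice that were injected with M1 or served as Control. The genes were chosen by symbol: the non-muscle actins Actb and Actg1, the non-muscle myosin II heavy chains Myh9 and Myh10, the tropomyosins Tpm1 and Tpm3, the Arp2/3 complex subunits Arpc2 and Arpc3, cofilin (Cfl1) and profilin (Pfn1). All 10 were found among the 55536 genes of the count table, and all 10 passed the filter on low counts that left 17499 genes for testing. The samples were 3 Control and 3 M1 libraries, each from both ovaries of 1 female ICR mouse, labelled 10 weeks old and collected at 20:00 on the day of proestrus. M1, a compound that promotes mitochondrial fusion, was injected intraperitoneally at 10 mg/kg in DMSO, Tween80 and PBS at 9:00 and 16:00, which is 11 h and 4 h before collection. The labels name the other group Control without saying what was injected. Messenger RNA was captured by its poly(A) tail, and between 12536440 and 18651402 read counts were assigned to genes per library.

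Actin is a globular protein that polymerises into filaments, which carry cell shape, adhesion, contraction and membrane traffic. Profilin loads monomers for assembly, the Arp2/3 complex starts branches on existing filaments, cofilin severs and disassembles old filaments, tropomyosins coat filaments and govern what binds to them, and myosin II pulls on them. In the ovary, the cytoskeleton of granulosa cells is rebuilt when luteinizing hormone acts on the follicle before ovulation, and smooth muscle of the theca externa and the blood vessels contains much actin and myosin as well. The whole organ was sequenced, so that fewer cells of a type and less RNA per cell cannot be told apart in any value below.

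The 10 genes were split in direction. Arpc3, Cfl1 and Pfn1 had higher levels in all 3 M1 libraries than in all 3 Control libraries, and Actg1, Myh10, Tpm1 and Tpm3 had lower levels in all 3 (in CPM, counts scaled by the TMM-normalized size of each library). For Actg1 the gap was very narrow. Of all tested genes, 11.4% had every M1 library above and 11.2% had every M1 library below every Control library. By edgeR's quasi-likelihood test 0 of the 10 genes were called, where a call needed a Benjamini-Hochberg adjusted p under 0.05 over all genes and a fold change above 1.5, and 0.00571% of all tested genes were called. At an unadjusted p under 0.05 in edgeR, 3 of the 10 were lower after M1 (Tpm3, Myh10 and Actg1) and 3 were higher (Arpc3, Cfl1 and Pfn1), against 9.17% and 7.7% of all tested genes. DESeq2 called 2 of the 10 as lower (Tpm3 and Myh10) and 0 as higher, against 1.5% and 1.3% of the 15238 genes to which it gave an adjusted p. The library of Control mouse 1 lay closer to the M1 libraries than the other Control libraries in several of the values given below, so the fits of the 10 genes, of the 118 other actin genes and of the long and short genes were also made without it. Without Control mouse 1, edgeR called Myh9, Myh10 and Tpm3 as lower and 0 of the 10 as higher, against 3.07% and 1.28% of the 17994 genes tested then. This library was singled out by its values in these same data, so the calls without it are no independent support for a change. With any other library left out, edgeR called 0 of the 10.

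**Figure D1:**
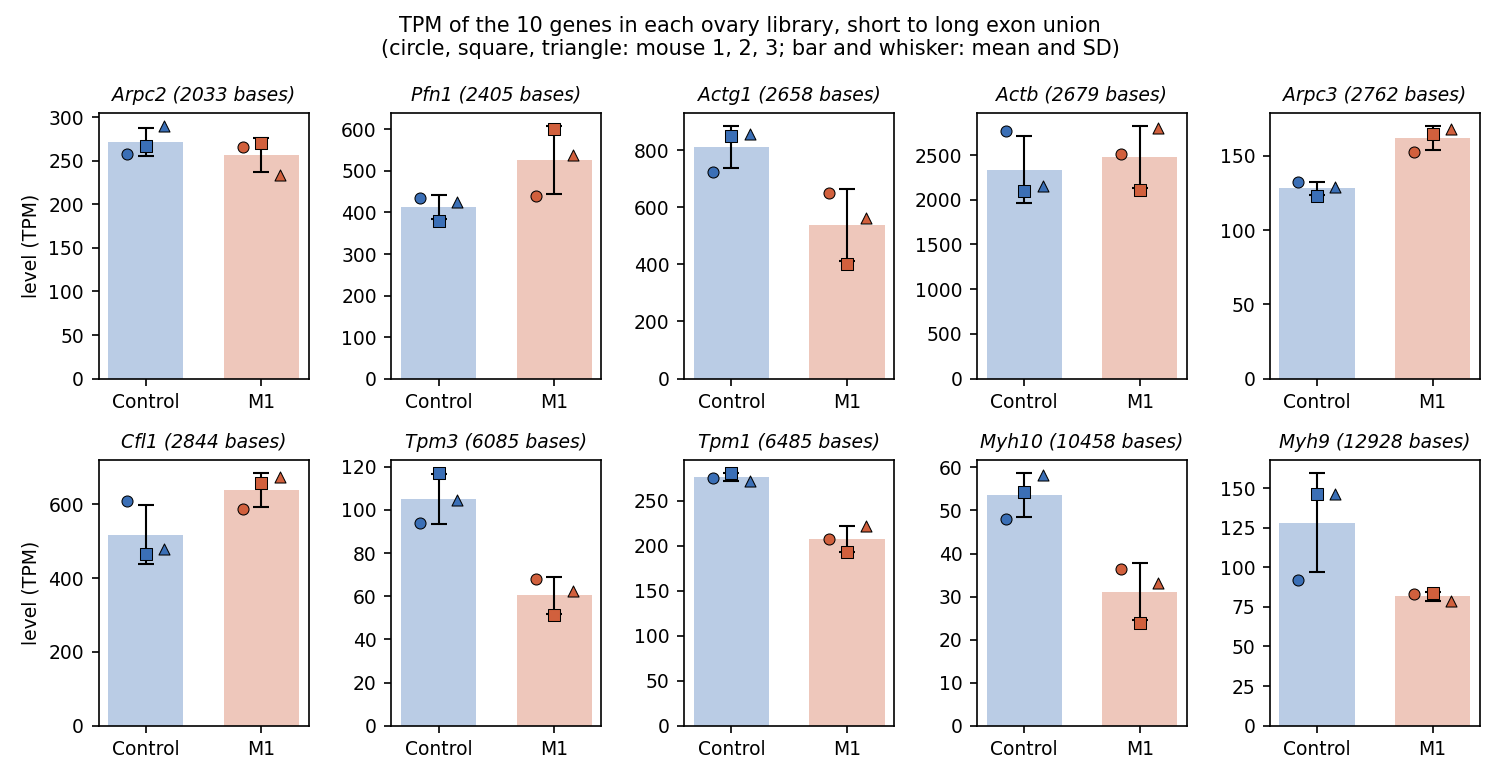
TPM (counts scaled per gene length and per library, linear axis from 0) of each of the 10 genes in the 3 Control and 3 M1 libraries, ordered from the shortest to the longest exon union. Circles, squares and triangles are mice 1, 2 and 3 of each group and are not treated as pairs across groups. Bars with whiskers are the mean and SD. In TPM the M1 points of Tpm1, Tpm3, Myh10, Myh9 and Actg1 lie below all Control points, narrowly for Myh9, and those of Arpc3 and Pfn1 lie above, narrowly for Pfn1.

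Levels were compared between the genes in TPM, the deposited unit that is scaled per length. Actb was the most abundant of the 10 in both groups, with a mean level of 2338.9 ± 370.7 TPM in Control ovaries and 2477.2 ± 349.1 TPM in M1 ovaries (SD, n = 3 each, as for all means). In the Control group it was followed by Actg1, Cfl1, Pfn1, Tpm1, Arpc2, Myh9, Arpc3, Tpm3 and Myh10, the last at 53.6 ± 5.15 TPM. In this order the ranges of Tpm1 and Arpc2 overlapped, as did those of Myh9 with Arpc3 and with Tpm3. In the M1 group the order was Actb, Cfl1, Actg1, Pfn1, Arpc2, Tpm1, Arpc3, Myh9, Tpm3 and Myh10. There the ranges of Cfl1, Actg1 and Pfn1 overlapped one another, and the last 6 genes had separate ranges. The TPM scale and the CPM scale were offset from each other: limma on log2 TPM gave a median log2 fold change of -0.16 over all genes, while edgeR on counts gave a median of -0.00, so that differences between groups were taken from the counts.

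The actins are encoded by Actb (ENSMUSG00000029580, beta-actin, chr5:142903115-142906754, minus strand, GRCm38) and Actg1 (ENSMUSG00000062825, gamma-actin, chr11:120345690-120348542, minus strand). Their proteins are almost the same and differ near the start, and most of what separates the coding parts of the genes lies in synonymous codons. The first 60 coding bases of the transcripts Actb-201 and Actg1-202 of GENCODE vM21 are shown because the coding parts of the pair are so alike. Capitals mark the 9 differing bases.
Actb: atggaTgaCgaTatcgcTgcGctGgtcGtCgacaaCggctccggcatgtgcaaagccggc
Actg1: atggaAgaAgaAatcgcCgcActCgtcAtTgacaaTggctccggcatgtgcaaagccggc
Over the 1128 coding bases the sequences differed at 128, an identity of 88.65%, and the longest identical run was 62 bases, shorter than a sequencing read. Over all transcripts, coding bases make up 1134 of the exon union of Actb and 1329 of that of Actg1, and the rest was not compared. How reads that match both genes were counted is not given in the sources used here, and the split between Actb and Actg1 is uncertain for such reads.

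Actb had 2766.0, 2101.4 and 2149.2 TPM in Control mice 1 to 3 and 2513.2, 2111.5 and 2806.9 TPM in M1 mice 1 to 3. The groups overlapped, with Control mouse 1 and M1 mouse 3 at the top. The mean was 1834 ± 236 CPM in the Control group and 2203 ± 227 CPM in the M1 group, a log2 fold change of 0.26 with a standard error of 0.18 (95% interval -0.16 to 0.69, edgeR adjusted p = 0.490). The interval included 0, and the groups overlapped in CPM as well.

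Actg1 had 724.6, 848.2 and 858.1 TPM in the Control ovaries and 650.6, 401.4 and 563.2 TPM in the M1 ovaries. Each M1 mouse was below each Control mouse, and M1 mouse 1 was next to Control mouse 1. In CPM this gap was very narrow, with 547.2 in Control mouse 1 and 542.3 in M1 mouse 1. The CPM means were 633 ± 75.4 and 472 ± 80.7, with a log2 fold change of -0.42 ± 0.18 (SE, 95% interval -0.84 to -0.01, edgeR adjusted p = 0.291). DESeq2 gave an adjusted p of 0.212. With an offset for gene length, explained below, the log2 fold change of Actg1 was -0.50.

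The actins therefore had fold changes of opposite sign. Actg1 made up 20.8%, 28.8% and 28.5% of the summed TPM of both actins in Control mice 1 to 3, and 20.6%, 15.97% and 16.7% in M1 mice 1 to 3. All M1 shares lay below the Control shares, although M1 mouse 1 and Control mouse 1 were almost equal. The sum of both actins ran from 2949.6 to 3490.6 TPM in Control and from 2512.8 to 3370.1 TPM in M1 ovaries and overlapped. The Actg1 to Actb ratio was not among the ratios set for testing, and no p is given for it.

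The window before Actg1 holds a CArG box, the site bound by serum response factor (SRF), which drives many cytoskeletal genes together with cofactors that sense free actin. It is shown because Actg1 was the only gene of the 9 with a promoter entry in RefSeq that held this motif. The 150 bases before the start that RefSeq annotates ( GRCm38.p6, chr11:120348496-120348645, minus strand, 5′ to 3′) read as follows, with the CArG box in capitals, beginning 90 bases before that start.
Actg1 promoter: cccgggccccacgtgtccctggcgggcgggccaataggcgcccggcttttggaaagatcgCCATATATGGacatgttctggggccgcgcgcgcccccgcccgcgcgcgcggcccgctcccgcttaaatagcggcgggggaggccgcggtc
Searched on both strands of the RefSeq promoter windows, which have the same length for every gene, a CArG box was found in 1.63% of 32851 promoters. The TATA motif TATAAA was found in 1 of the 9 genes (Myh9) and in 13.62% of all promoters, and the GC box GGGCGG in 8 of the 9 and in 35.66% of all. These matches describe the letters only. Actb had no entry.

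Srf itself had 34.24, 46.15 and 42.04 CPM in Control mice and 33.97, 26.79 and 33.29 CPM in M1 mice. Its M1 values were all below its Control values, narrowly so for M1 mouse 1 and Control mouse 1, with a log2 fold change of -0.38 (edgeR adjusted p = 0.292). Its cofactors Mkl2 and Mkl1, the genes of the myocardin-related transcription factors, had log2 fold changes of -0.31 and -0.26 (edgeR adjusted p = 0.303 and 0.409), and 0 of the 3 genes passed.

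Non-muscle myosin II is a motor of paired heavy chains with light chains that slides actin filaments past each other. Myh9 (ENSMUSG00000022443, chr15:77760587-77842175, minus strand) encodes the heavy chain of myosin IIA. It had 91.9, 146.5 and 146.1 TPM in Control mice and 83.0, 83.8 and 78.5 TPM in M1 mice. The M1 mice were close together, Control mouse 1 was near them, and Control mice 2 and 3 were apart from all others. On the CPM scale Control mouse 1 (337.6) lay within the M1 range (332.0 to 390.1). The log2 fold change was -0.47 ± 0.22 (SE, 95% interval -0.97 to 0.03, edgeR adjusted p = 0.319), and without Control mouse 1 it was -0.68 ± 0.13 and passed (edgeR adjusted p = 0.0446). The call of Myh9 thus turned on that library.

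Myh10 (ENSMUSG00000020900, chr11:68691559-68816632, plus strand) encodes the heavy chain of myosin IIB. Its levels were 48.1, 54.3 and 58.3 TPM in Control mice and 36.5, 23.8 and 33.2 TPM in M1 mice, with no overlap. The CPM means were 165 ± 19.0 and 108 ± 15.9, a log2 fold change of -0.61 ± 0.15 (SE, 95% interval -0.97 to -0.26, edgeR adjusted p = 0.197). Myh10 fell in the DESeq2 fit (adjusted p = 0.0391) and in edgeR without Control mouse 1 (log2 fold change -0.71, adjusted p = 0.0484), and did not pass in edgeR with all 6 libraries.

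Of the 7 genes listed for non-muscle myosin II, Myl12a, a regulatory light chain, was the only other besides Myh10 with an unadjusted p under 0.05 in edgeR. At this level 7.7% of all tested genes were higher and 9.17% lower. Myl12a had 118.0, 94.3 and 89.0 CPM in Control and 127.4, 122.6 and 131.3 CPM in M1 ovaries, a log2 fold change of 0.34 (edgeR adjusted p = 0.276). Its fold change was opposite in sign to those of Myh9 and Myh10. The same held for the light chains Myl12b (0.38, edgeR adjusted p = 0.458) and Myl6 (0.19, edgeR adjusted p = 0.471). Only the light chain Myl9 had the sign of Myh9 and Myh10 (-0.34, edgeR adjusted p = 0.514). The third heavy chain, Myh14, had 1.9 to 2.7 CPM in all libraries and a log2 fold change of 0.04 (edgeR adjusted p = 0.955).

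Tropomyosins lie along the filament as coiled coils, and each gene gives many isoforms. Tpm1 (ENSMUSG00000032366, chr9:67022590-67049406, minus strand) had 275.6, 280.7 and 272.0 TPM in Control mice and 207.4, 193.1 and 221.5 TPM in M1 mice. The groups did not overlap and their spread was small. On the CPM scale the means were nearer (526 ± 25.2 and 448 ± 24.3), and the log2 fold change was -0.23 ± 0.13 (SE, 95% interval -0.53 to 0.06, edgeR adjusted p = 0.382).

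Tpm3 (ENSMUSG00000027940, chr3:90072649-90100902, plus strand) had 93.8, 117.1 and 104.5 TPM in Control mice and 68.0, 51.3 and 62.2 TPM in M1 mice. All M1 mice were below all Control mice by a clear gap. The CPM means were 188 ± 27.5 and 122 ± 8.95, with a log2 fold change of -0.63 ± 0.14 (SE, 95% interval -0.96 to -0.30, edgeR adjusted p = 0.195). Tpm3 fell in the DESeq2 fit (adjusted p = 0.0214) and in edgeR without Control mouse 1 (log2 fold change -0.73, adjusted p = 0.0403). The TPM of Tpm3 relative to Tpm1 was 0.340, 0.417 and 0.384 in Control and 0.328, 0.265 and 0.281 in M1 ovaries, with no overlap and no test. Tpm4, a further cytoplasmic tropomyosin, had 333.2, 326.5 and 476.6 CPM in Control and 507.4, 670.4 and 285.2 CPM in M1 mice, which overlapped (log2 fold change 0.36, edgeR adjusted p = 0.576). Smooth muscle uses Tpm1 and Tpm2, and Tpm2 had a log2 fold change of -0.02 (edgeR adjusted p = 0.974).

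Arpc2 and Arpc3 are subunits of the Arp2/3 complex, which nucleates branched filaments. Arpc2 (ENSMUSG00000006304, chr1:74236084-74268209, plus strand), a core subunit that binds the mother filament, had 257.8, 267.0 and 290.0 TPM in Control mice and 265.9, 270.1 and 233.9 TPM in M1 mice. The groups overlapped and the order of the mice showed no pattern. The log2 fold change was 0.10 ± 0.13 (SE, 95% interval -0.21 to 0.42, edgeR adjusted p = 0.727), and its sign turned negative with the gene length offset and on the TPM scale.

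Arpc3 (ENSMUSG00000029465, chr5:122391878-122414184, plus strand) had 132.2, 123.2 and 128.8 TPM in Control mice and 152.8, 164.8 and 168.4 TPM in M1 mice. All M1 values were higher. The CPM means were 104 ± 0.129 and 149 ± 15.9, so that the Control mice varied by less than 1 CPM while the M1 mice were spread. The log2 fold change was 0.53 ± 0.12 (SE, 95% interval 0.25 to 0.80, edgeR adjusted p = 0.195). DESeq2 gave an adjusted p of 0.0319 with a log2 fold change of 0.52, which is under the 1.5-fold minimum, so that Arpc3 was not called. The TPM of Arpc3 relative to Arpc2 was 0.513, 0.461 and 0.444 in Control and 0.575, 0.610 and 0.720 in M1 ovaries, with no overlap.

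Of the 9 genes listed for the complex, Arpc3 was the only one with an unadjusted p under 0.05 in edgeR. Of all tested genes, 7.7% were higher and 9.17% lower at this level, so that 1 of 9 is no excess. Of the 9, 6 had positive and 3 negative fold changes (median 0.10). Arpc1a, a subunit that meets the activating factors, had 116.9, 112.5 and 107.7 CPM in Control and 127.6, 137.4 and 130.6 CPM in M1 mice, a log2 fold change of 0.23 (edgeR adjusted p = 0.317). Its isoform Arpc1b had a log2 fold change of 0.34 (edgeR adjusted p = 0.386) and overlapped.

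Cfl1 and Pfn1 bind actin and keep filaments turning over, Cfl1 by taking them apart and Pfn1 by supplying monomers. Cfl1 (ENSMUSG00000056201, chr19:5490455-5495201, plus strand) had 609.8, 465.9 and 478.7 TPM in Control mice and 586.5, 657.5 and 673.2 TPM in M1 mice. In TPM, Control mouse 1 was above M1 mouse 1, while in CPM all M1 mice (523.1 to 673.1) were above all Control mice (397.6 to 492.8). The log2 fold change was 0.49 ± 0.16 (SE, 95% interval 0.12 to 0.87, edgeR adjusted p = 0.232). Of its 2844 exonic bases, 468 (16.5%) overlap exons of Snx32 on the opposite strand. Snx32 had 329 to 477 counts per library, and since the strand setting of the counting is not given in the sources used here, reads from this overlap cannot be told apart.

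Pfn1 (ENSMUSG00000018293, chr11:70651850-70654644, minus strand) had 433.8, 379.3 and 426.1 TPM in Control mice and 439.5, 601.5 and 539.2 TPM in M1 mice. M1 mouse 1 lay just above the Control mice and the other M1 mice lay well above them. The CPM means were 291 ± 11.6 and 426 ± 94.6, a log2 fold change of 0.55 ± 0.18 (SE, 95% interval 0.13 to 0.96, edgeR adjusted p = 0.232). DESeq2 gave adjusted p of 0.0932 for Cfl1 and 0.105 for Pfn1, so that neither passed. The TPM of Pfn1 relative to Cfl1 overlapped between the groups (0.711 to 0.890 in Control, 0.749 to 0.915 in M1).

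**Figure D2:**
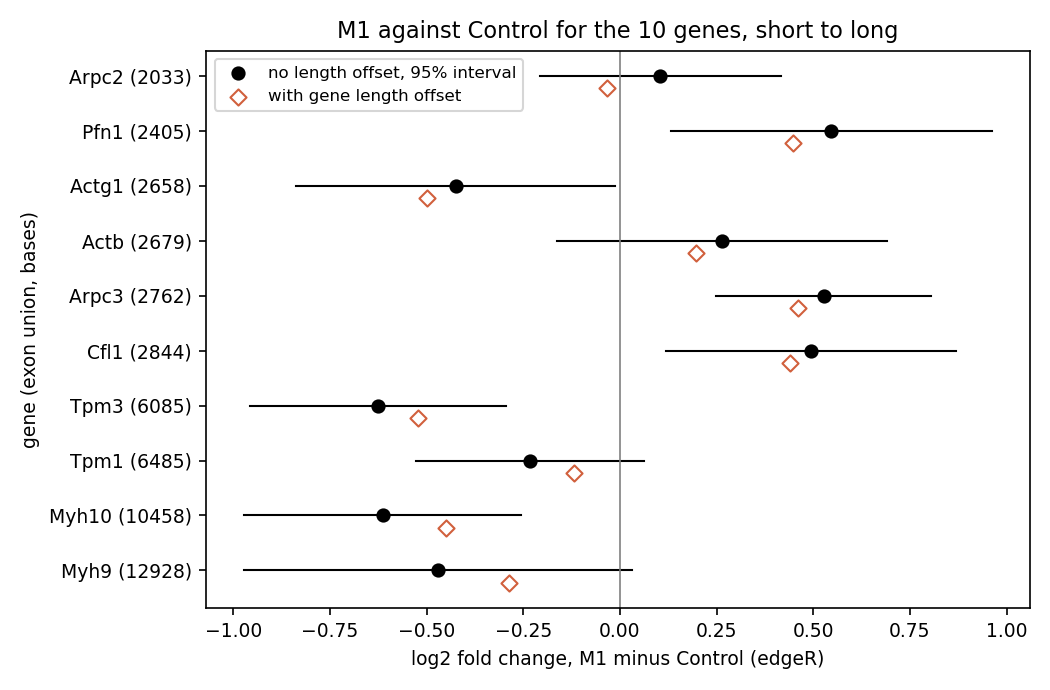
Log2 fold change of each of the 10 genes, M1 minus Control (horizontal axis), with genes ordered from the shortest to the longest exon union in bases. Black points with lines are the edgeR estimate and its 95% interval, and open diamonds are the estimate with the gene length offset. The intervals of Pfn1, Actg1, Arpc3, Cfl1, Tpm3 and Myh10 leave out 0, and with the offset all diamonds but that of Arpc2 keep the sign of the black point.

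Long and short genes were compared because the fold changes of all genes followed length. The length used is the exon union, all bases covered by any exon of the gene, which was also the length behind the deposited TPM. With the median of all tested genes (3872 bases) as the divide, Myh9 (12928 bases), Myh10 (10458), Tpm1 (6485) and Tpm3 (6085) were long. Cfl1 (2844), Arpc3 (2762), Actb (2679), Actg1 (2658), Pfn1 (2405) and Arpc2 (2033) were short. The 4 long genes all had negative fold changes with a median of -0.54, and 5 of the 6 short genes had positive ones with a median of 0.38. Actg1 was the exception. Over all 10 genes the median was -0.06. Among all tested genes, 5512 of the 8752 long ones had negative and 5425 of the 8747 short ones positive fold changes. The long ones had a median of -0.11 and the short ones of 0.13, a difference of -0.23, where the 10 genes gave a difference of -0.92. Being a score over chosen genes, the difference of the 10 genes was not tested.

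**Figure D3:**
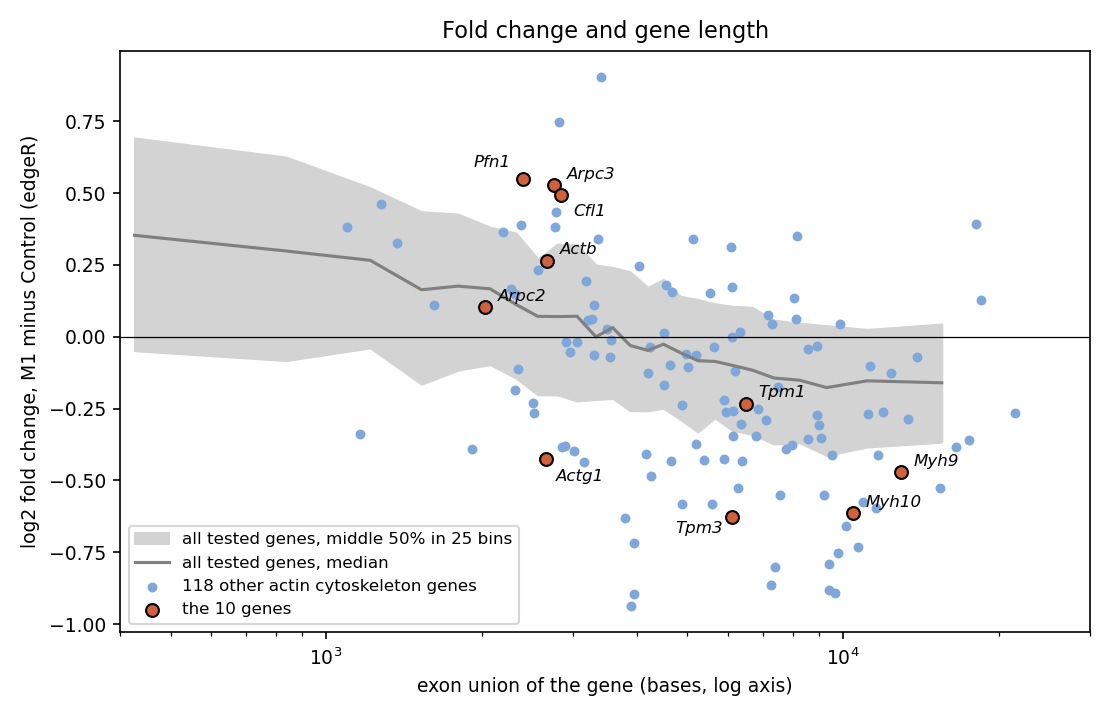
Log2 fold change, M1 minus Control (vertical axis), against the exon union length (bases, log axis) for the 10 genes (orange), for 118 other actin cytoskeleton genes (blue) and for all tested genes in 25 bins of length (line, median; grey, middle 50%). The line runs from above 0 for short genes to below 0 for long genes, and Tpm3, Myh10, Myh9, Actg1, Pfn1, Arpc3 and Cfl1 lie outside the grey band at their length.

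Each gene was also set beside genes of its own length class. Among the 2832 tested genes of at least 2000 and under 3000 bases the median log2 fold change was 0.10, and the middle 80% ran from -0.50 to 0.64. In this class Pfn1 stood at percentile 87.4, Arpc3 at 86.7, Cfl1 at 85.5, Actb at 68.2, Arpc2 at 50.9 and Actg1 at 11.9. Among the 4066 genes of at least 6000 and under 13000 bases the median was -0.14, and the middle 80% ran from -0.61 to 0.26. There Tpm3 stood at percentile 9.08, Myh10 at 9.76, Myh9 at 17.8 and Tpm1 at 39.8. Tpm3 and Myh10 were thus just below the middle 80% of genes of their length, and the other 8 were within it.

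An offset that removes the trend with length in each library (lowess of log counts on log length) brought the difference between all long and all short genes from -0.23 to -0.01. The 10 genes then still gave -0.69, with a median of -0.37 for the long and 0.32 for the short genes. With the offset the log2 fold changes were -0.52 for Tpm3, -0.45 for Myh10, -0.29 for Myh9 and -0.12 for Tpm1. They were 0.46 for Arpc3, 0.45 for Pfn1, 0.44 for Cfl1 and 0.20 for Actb. The exon union overstates the message of each of the 10 genes. The longest coding transcript has 7791 bases for Myh10, 7433 for Myh9, 2890 for Tpm1 and 2233 for Tpm3. In the short genes it is 2354 for Cfl1, 1952 for Actg1, 1920 for Actb, 1439 for Arpc2, 899 for Arpc3 and 861 for Pfn1. By this length Tpm1 and Tpm3 are nearer to the actins than to the myosins. The length classes and the offset rest on the exon union. Counting only the myosin genes as long, a division made after the data were seen, gave a difference of -0.73.

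The length pattern was followed through each library as the deviation of each gene in log2 CPM from its own mean across all libraries. The median of the 4 long genes was 0.09, 0.44 and 0.36 in Control mice 1 to 3 and -0.21, -0.27 and -0.25 in M1 mice 1 to 3. The median of the 6 short genes was -0.11, -0.24 and -0.24 in Control mice and 0.03, 0.32 and 0.29 in M1 mice. Both medians separated the groups, with Control mouse 1 nearest to M1 mouse 1. The long minus short value of the 10 genes was 0.19, 0.68 and 0.60 in Control and -0.24, -0.58 and -0.54 in M1 mice. For all tested genes the same value was -0.04, 0.17 and 0.19 in Control and -0.06, -0.15 and -0.15 in M1 mice, which puts Control mouse 1 next to M1 mouse 1 and gives it the sign of the M1 mice.

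**Figure D4:**
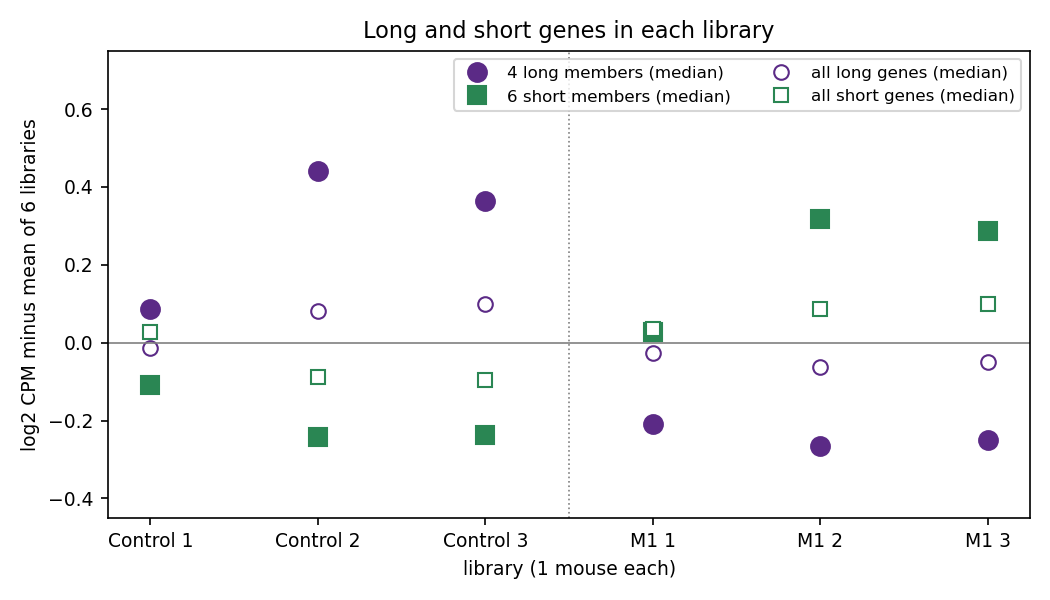
Median deviation in log2 CPM from the mean across libraries (vertical axis) of the 4 long genes (filled circles) and 6 short genes (filled squares) in each library, with the same for all long and all short tested genes (open symbols). The filled symbols lie with long above short in the 3 Control libraries and with short above long in the 3 M1 libraries, and in Control 1 the open symbols lie in the order of the M1 libraries.

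A ratio within a library does not depend on the scaling of that library. The TPM of Myh9 relative to Actb was 0.0332, 0.0697 and 0.0680 in Control mice and 0.0330, 0.0397 and 0.0280 in M1 mice. Control mouse 1 was within the M1 range. The log2 difference was -0.70 (two-sided exact permutation test, p = 0.2), and the SD of the log2 ratio was 0.61 in Control and 0.25 in M1 mice. The TPM of Myh10 relative to Actg1 was 0.0664, 0.0640 and 0.0680 in Control mice and 0.0560, 0.0593 and 0.0590 in M1 mice. Here the groups did not overlap and varied little, and the log2 difference was -0.19 (p = 0.1, two-sided exact permutation test, the smallest p that 3 against 3 allows). Adjusted over these 2 ratios, p was 0.2 for each, so that the design could not reach 0.05 for either. The ratio of the long to the short gene was lower in M1 mice in the second pair although both genes had negative fold changes. Both ratios set a long against a short gene and keep the trend of all genes with length. With the gene length offset, Myh10 (log2 fold change -0.45) was not lower than Actg1 (-0.50), while Myh9 (-0.29) stayed below Actb (0.20).

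The tables were also searched for genes that varied like Actb and Myh9 over the 6 libraries, among 10750 genes with a mean of at least 10 CPM. For Actb these were Mdm4 and Chic2 (Pearson r of 0.9972 each) and Cmc4 (0.9953). For Myh9 they were Col4a2, a chain of basement membrane collagen IV (0.9998), Mef2d, a transcription factor (0.9961), and Ehd1, an endocytic ATPase (0.9956). Col4a2 had 387.1, 814.0 and 770.2 CPM in Control mice and 389.1, 473.5 and 386.2 CPM in M1 mice, which has Control mouse 1 among the M1 mice as for Myh9. Mdm4 (14798 bases) and Chic2 (9750 bases) are long genes with the pattern of the short Actb. These values describe 6 libraries of 2 groups and carry no test.

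Other genes that build or steer actin filaments were taken from 10 lists by role, of which 118 genes besides the 10 were tested. Of the 118, 36 had positive and 82 negative fold changes (median -0.18, against -0.00 over all tested genes). At an unadjusted p under 0.05 in edgeR, 4 of the 118 were higher and 22 lower, against 7.7% and 9.17% of all tested genes. Of the 118 edgeR called 0, while DESeq2 called 3 as lower (Flna, Fhod3 and Svil) and 0 as higher, against 1.5% and 1.3% of all genes. The counts at an unadjusted p that follow for single lists are to be read against the same 7.7% higher and 9.17% lower. The 82 long genes among the 118 had a median of -0.27 (17 positive, 65 negative), and the 36 short ones of 0.04 (19 positive, 17 negative). Of all tested long genes, 5512 of 8752 were negative, and most of the lists below hold mainly long genes. Without Control mouse 1, edgeR called 15 of the 118 as lower and 1 as higher, against 3.07% and 1.28% of all genes tested then, with a median of -0.26 over the 118 and of 0.01 over all. The higher one was Tmsb10, which encodes a thymosin that holds actin monomers (log2 fold change 0.73, edgeR adjusted p = 0.0432) and is named for this call alone.

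Nucleation promoting factors switch on the Arp2/3 complex. Of 18 tested, with a median length of 5546 bases, 4 had positive and 14 negative fold changes (median -0.17), with 3 lower and 1 higher at an unadjusted p under 0.05 in edgeR (9.17% and 7.7% of all genes). In 3 of the 18 every M1 library was above and in 4 below every Control library, against 11.4% and 11.2% of all tested genes. Those lower were Washc2 and Washc5, subunits of the endosomal WASH complex, and Wasf2, the core of a WAVE complex at the cell edge, with log2 fold changes of -0.55, -0.48 and -0.53. The higher was Brk1, a small WAVE subunit of 1095 bases, at 0.38. Among 16 formins and Spire genes, which start unbranched filaments, 3 were positive and 13 negative (median -0.34, median length 6795 bases), with 4 lower and 0 higher at that level. Fhod3, a formin, had 47.4, 55.2 and 66.0 CPM in Control and 34.4, 30.7 and 27.6 CPM in M1 mice. It had a log2 fold change of -0.86 (edgeR adjusted p = 0.195) and fell in the DESeq2 fit (adjusted p = 0.00413). Diaph2, Spire1 and Daam2 had log2 fold changes of -0.60, -0.39 and -0.75 (edgeR adjusted p = 0.208, 0.209 and 0.227).

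Of the 17 genes of monomer binding and turnover, which include Cfl1 and Pfn1, 10 were positive and 7 negative (median 0.06). Coro1c, a coronin of filament branches, was the only lower gene at an unadjusted p under 0.05 in edgeR (log2 fold change -0.89, edgeR adjusted p = 0.209), with overlapping groups. Among 15 capping and severing genes 2 were positive and 13 negative (median -0.41, median length 5890 bases), with 5 lower and 0 higher at an unadjusted p under 0.05 in edgeR, against 9.17% and 7.7% of all genes. Svil, supervillin, a large filament and myosin II binding protein, had 60.4, 83.0 and 87.1 CPM in Control and 48.1, 44.1 and 46.7 CPM in M1 mice, and fell in the DESeq2 fit (adjusted p = 0.0162, edgeR log2 fold change -0.73, adjusted p = 0.195). The severing protein gelsolin (Gsn, 3157 bases) and the capping adducin Add3 had log2 fold changes of -0.44 and -0.43, and Capza2 and Add1 of -0.43 and -0.36.

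Crosslinkers and membrane linkers numbered 16, of which 2 were positive and 14 negative (median -0.37, median length 7695 bases), with 5 lower and 0 higher at an unadjusted p under 0.05 in edgeR, against 9.17% and 7.7% of all genes. Flna, filamin A, had 579.0, 852.1 and 855.9 CPM in Control mice and 427.2, 388.3 and 427.1 CPM in M1 mice, with no overlap. It fell in the DESeq2 fit (adjusted p = 0.00252), and its edgeR log2 fold change was -0.88 (adjusted p = 0.195). Flnc (-0.79), the bundling protein Fscn1 (-0.40, 3012 bases), Rdx (-0.43) and Lcp1 (-0.41) were the others.

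**Figure D5:**
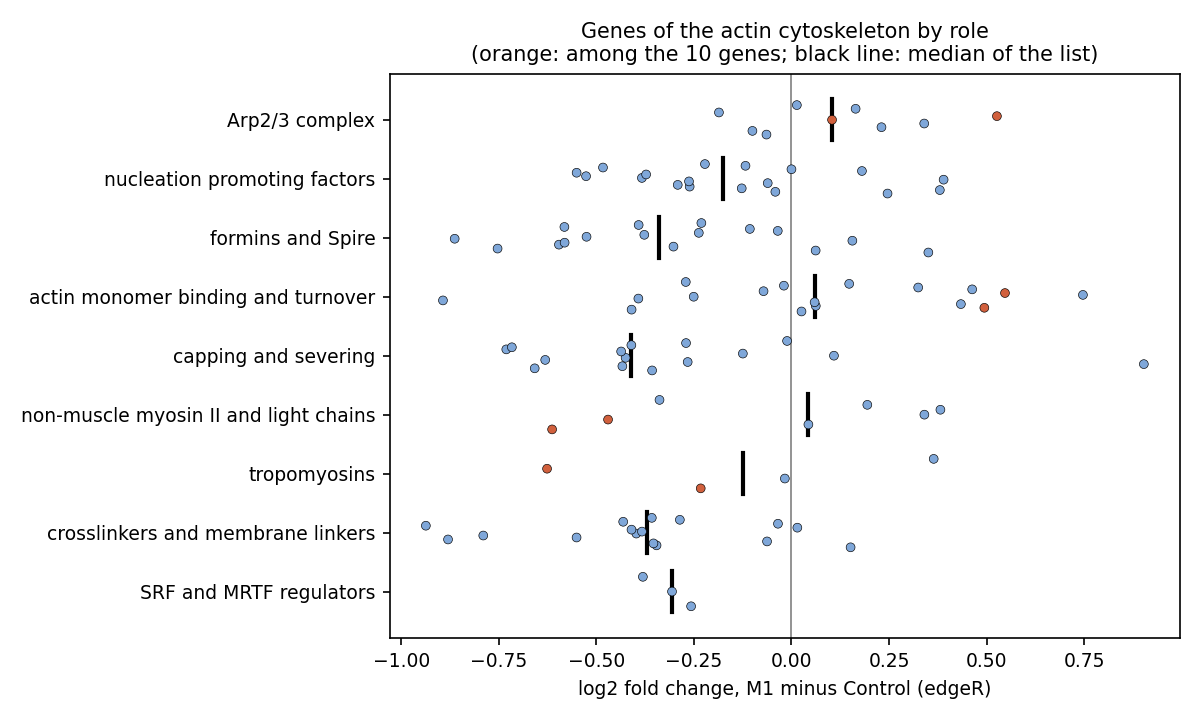
Log2 fold change, M1 minus Control (horizontal axis, edgeR), of each tested gene of 9 of the 10 role lists of the actin cytoskeleton (rows). Orange points are among the 10 genes, blue points are other genes, and black bars are the medians of the lists. The medians run from -0.41 for capping and severing genes to 0.10 for the Arp2/3 complex.

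Markers of the cell types in the organ were read beside these values. No granulosa, theca or oocyte marker was at 0 in all libraries. Among 13 smooth muscle and pericyte markers, genes of contractile cells, 12 had negative fold changes (median -0.37). Their summed level was 1153 to 1494 TPM in Control and 808 to 1075 TPM in M1 mice, which did not overlap. On the TPM scale, however, the median log2 fold change of all genes was -0.16. In CPM, 3 of the 13 had every M1 library below every Control library, against 11.2% of all tested genes. Synpo2 (-0.76), Smtn (-0.61) and Lmod1 (-0.53) had an unadjusted p under 0.05 in edgeR, which 9.17% of all genes had as lower, and Synpo2 fell in the DESeq2 fit (adjusted p = 0.0310). Notch3 had a log2 fold change of 0.38, and Acta2, the smooth muscle actin, had a log2 fold change of -0.33 (edgeR adjusted p = 0.351). In TPM, the sum of these markers, like Tpm3, Myh10, Tpm1 and Actg1, was lower in every M1 mouse than in every Control mouse. In TPM, Control mouse 3 had the lowest sum and the lowest Tpm1 of its group, and the highest Myh10 and Actg1. The part of these cells in the values of the 10 genes was not tested. All 8 oocyte markers had negative fold changes (median -0.59), with summed levels of 512 to 991 TPM in Control and 268 to 534 TPM in M1 mice, which overlapped. The summed levels of granulosa, theca and steroidogenic, endothelial, leukocyte, and erythroid and platelet markers overlapped between the groups. Single markers could differ: Itgam, an integrin of myeloid cells, had 4.99, 2.94 and 4.24 CPM in Control and 13.06, 8.04 and 9.09 CPM in M1 mice and rose in the DESeq2 fit (adjusted p = 0.00713, edgeR log2 fold change 1.31, adjusted p = 0.195), while the macrophage marker Adgre1 had a log2 fold change of -1.34 (edgeR adjusted p = 0.309). Skeletal and cardiac muscle markers summed to 4.43 to 10.1 TPM in all libraries.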

How the data were processed

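Ovarian mRNA of 3 Control and 3 M1 mice was sequenced as paired reads. The authors used Trimmomatic 0.38 for trimming, HISAT2 2.1.0 for alignment to the GRCm38 genome and featureCounts 2.0.0 for gene counts, and deposited these counts without normalization. The authors' TPM are scaled by gene length to the same sum per library, and the authors' FPKM by length and assigned reads. The length implied by FPKM and counts matched the GENCODE vM21 exon union within 1 base for 33353 of 33353 genes. The FPKM served only for this.

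Counts were tested in R 4.3.3 with edgeR 4.0.16 (TMM, filterByExpr with a minimum count of 10 and a total of 15, quasi-likelihood test), whose common biological coefficient of variation was 0.257. Alternatives were RLE size factors, DESeq2 1.42.0, limma-voom (limma 3.58.1), other filters, a replicate block, a gene length offset (lowess span 0.5), each library left out, no fold change minimum and log2 of TPM with a pseudocount of 1. CPM used TMM, with a prior count of 2 on the log scale. The 10 genes and the lists were chosen with earlier results of these data known. Besides the 10, up to 3 genes per list with the smallest p were named, plus those needed to name a count of 5 or fewer, and the 3 genes most like Actb and Myh9. Outside this rule, all genes of the myosin and tropomyosin lists and the smooth muscle actin Acta2 were named. Wash1 was not found, Mrtfa and Mrtfb were found as Mkl1 and Mkl2, and Scin was below the filter. The authors caged the mice by experimental group, so that cage and treatment cannot be told apart. Whether the mice of a group shared a cage or came from separate days is not stated. The results of 1 of the 10 role lists, named genes included, are not reported here, though its genes count among the other actin genes.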

Additional observations from a re-analysis of the deposited data

How the results depend on the processing

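In 15 alternatives the sign of the log2 fold change held for 9 of the 10 genes. Arpc2 (0.10) reversed to -0.034 with the gene length offset, to -0.033 with the offset and replicate block, and to -0.083 in limma on TPM. Over all genes edgeR called 1, DESeq2 426, edgeR with no filter beyond 1 count 155, and 0 to 782 genes were called with one library left out, 782 without Control mouse 1. With a replicate block edgeR called 0 genes, and 0 with the length offset and the block. No pairing of mice by number was seen: deviations of same-numbered mice correlated at 0.067, 0.106 and -0.255, and not every mouse correlated best with its own number. So few libraries cannot show whether same-numbered mice shared a day or batch. The median of the 10 genes (-0.06) was -0.25 in limma on TPM, where the median of all genes was -0.16, and -0.11 to -0.022 with one library left out. The long minus short difference (-0.92) was -0.69 with the length offset and -0.67 with the offset and replicate block, and ran from -1.14 to -0.75 with one library left out. The log2 ratio of Myh9 to Actb (-0.70) ran from -1.05, without Control mouse 1, to -0.52, and that of Myh10 to Actg1 (-0.19) from -0.21 to -0.16. These ranges do not include the length offset. With 3 mice a group the 95% intervals of Actb (-0.16 to 0.69) and Arpc2 (-0.21 to 0.42) leave changes of either sign undetected.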
